A study of Mus musculus with 16 samples.

Results

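Enzymes that write, maintain and remove DNA methylation in mouse embryonic stem (ES) cells were examined through the OCT4 binding sites that surround their genes. The 9 genes were Dnmt1, Dnmt3a, Dnmt3b, Dnmt3l and Uhrf1 on the writing side, and Tet1, Tet2, Tet3 and Tdg on the erasing side. An OCT4 peak was given to a gene when its midpoint lay inside the gene body or within 50 kb of any annotated transcript start of that gene. This rule gave 34 peaks out of 26704 in the list, and 9 genes out of 21938 protein-coding genes.

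The peaks come from ChIP-seq, in which DNA bound by a protein is pulled down with an antibody and sequenced. The series holds 16 libraries in 8 groups, with 2 biological duplicates per group, grown in serum with 2i and LIF. There were 4 libraries for OCT4, 4 for the chromatin remodeler subunit BRG1 and 8 for the histone mark H3K27ac. In 2TS22C ES cells a Tet-Off promoter drives Sox2, so that dox shuts off the gene. These cells were either untreated (SOX2 ON) or treated with dox at 1 ug/ml for 26 h (SOX2 OFF). ZHBTc4 cells, in which a Tet-Off promoter drives Pou5f1, the gene of OCT4, received the same dose for 24 h and add no peak here. Each line is a single engineered ES cell line, and some SOX2 protein was still left in 2TS22C cells at 26 h of dox. The values below rest on a single list, merged from OCT4 peaks of 2TS22C cells, which gives a chromosome, a start and an end for each peak and no height. The list has no column for a single library, so a peak cannot be placed in SOX2 ON or SOX2 OFF, no replicate error can be given and no difference between groups could be tested. As a check of the labelled cell type, the ES cell genes Pou5f1, Nanog, Sox2, Klf4, Esrrb, Sall4, Tfcp2l1 and Zfp42 held between 2 and 9 peaks each by the same rule, and 8 of 8 had at least 1. That is a weak check, because 73% of all protein-coding genes had at least 1 peak and their median of 2 was also the count of Klf4.

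In mammals a methyl group is placed on cytosine, mostly in CpG dinucleotides. DNMT3A and DNMT3B lay down new methylation, and DNMT3L, which lacks catalytic activity of its own, assists them. DNMT1 copies the pattern onto the new strand after replication, and UHRF1 recruits it by binding hemimethylated CpGs and modified histone H3. TET1, TET2 and TET3 oxidise 5-methylcytosine stepwise, and TDG cuts out the further oxidised forms so that base excision repair can restore cytosine. ES cells grown with 2i carry less methylation than those grown in serum alone. OCT4 binds an octamer sequence, and together with SOX2 it binds a composite site in which a SOX element lies directly before the octamer.

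The composite site was searched as CATTGTTATGCAAAT on both strands with at most 3 mismatches, and 4 of the 34 peaks held a match, against 11.5% of all peaks. All 4 belonged to genes of the writing side. None of the 18 peaks of the erasing side held one. A count of 0 among 18 allows a share of up to 16.7%, taken as 3 divided by 18, which includes the 11.5% of all peaks. The split was counted at this setting only. With A or T accepted at the second base, 17.6% of the 34 peaks held a match. The share over all peaks is not given at that setting, and the 11.5% is no comparator for it. With 4 mismatches 20.6% did, against 35.9% of all peaks. The side of the added peaks is not given here. The 4 sites are printed first because they are the nearest to the composite sequence at these genes. Each is read 5′ to 3′ on the strand of the match, with the 15 matched bases in capitals and 33 bases to each side, from build mm10.
Dnmt3b, 26.7 kb upstream, chr2:153622676-153622756, minus strand: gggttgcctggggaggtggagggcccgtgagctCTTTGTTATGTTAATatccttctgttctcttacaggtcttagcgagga
Dnmt3b, 6.22 kb upstream, chr2:153643211-153643291, plus strand: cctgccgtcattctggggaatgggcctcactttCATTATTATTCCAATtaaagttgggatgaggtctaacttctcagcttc
Dnmt3l, intron, chr10:78048321-78048401, minus strand: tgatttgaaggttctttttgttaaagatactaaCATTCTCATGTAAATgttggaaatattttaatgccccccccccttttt
Uhrf1, 4.84 kb upstream, chr17:56298396-56298476, minus strand: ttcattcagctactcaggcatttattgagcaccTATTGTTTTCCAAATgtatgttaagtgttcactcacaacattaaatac
Every one of the 4 matches carried 3 mismatches, the most allowed. Counted from 1 at the 5′ end of the SOX element, with the searched base first, the distal Dnmt3b site had A2T, C11T and A12T, and the proximal one G5A, G10T and A12C. The Dnmt3l site had G5C, T7C and C11T, and the Uhrf1 site C1T, A8T and G10C. The centres of the distal and proximal Dnmt3b matches lay 4 and 18.5 bp from the midpoints of their peaks, that of the Dnmt3l match 13.5 bp away and that of the Uhrf1 match 47.5 bp away.

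Octamers without the SOX element were found on both sides. The full octamer ATGCAAAT was found in 3 peaks, at Tet1, Tdg and Dnmt3l. A variant with 1 changed base, ATGCTAAT, was found in 4 peaks, at Tet1, Tet2 (2 peaks) and Tet3, and in 0 of the 16 peaks of the writing side. Taken as 3 divided by 16, that count allows a share of up to 18.8%. The variant was in 7.73% of all peaks, a share within that limit, and it was added to the search after earlier results were known. These sites are shown in capitals with 33 bases to each side, on the strand that carries them.
Tet1, octamer, chr10:62884004-62884077, minus strand: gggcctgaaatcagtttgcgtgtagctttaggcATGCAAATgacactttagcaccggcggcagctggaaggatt
Tdg, octamer, chr10:82652693-82652766, minus strand: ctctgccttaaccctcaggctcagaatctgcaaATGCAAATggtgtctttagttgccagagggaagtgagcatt
Dnmt3l, octamer, chr10:78096807-78096880, minus strand: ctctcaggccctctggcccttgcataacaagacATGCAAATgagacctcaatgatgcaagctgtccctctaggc
Tet1, octamer variant, chr10:62893426-62893499, plus strand: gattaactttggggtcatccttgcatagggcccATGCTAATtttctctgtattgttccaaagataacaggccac
Tet2, octamer variant, chr3:133524704-133524777, plus strand: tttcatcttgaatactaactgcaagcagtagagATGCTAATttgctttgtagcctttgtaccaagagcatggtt
Tet2, octamer variant, chr3:133506689-133506762, plus strand: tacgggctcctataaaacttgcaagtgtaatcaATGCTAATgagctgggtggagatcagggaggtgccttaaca
Tet3, octamer variant, chr6:83421897-83421970, plus strand: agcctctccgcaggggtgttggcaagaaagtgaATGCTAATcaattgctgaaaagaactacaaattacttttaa
The first of the Tet2 variant sites also carries a SOX core, seen as cctttgt further along the same strand. The SOX core was searched as CCATTGT or CCTTTGT. It was in 9 of the 34 peaks (26.5%, interval 14.6 to 43.1%), against 30.3% of all peaks. The Tet genes held it in 6 of their 16 peaks, and neither Tdg peak held it. The cores of the widest Tet2 peak, of the Tet2 peak beside it and of the peak upstream of Tet3 are printed in capitals with 33 bases to each side.
Tet2, SOX core, chr3:133533992-133534064, plus strand: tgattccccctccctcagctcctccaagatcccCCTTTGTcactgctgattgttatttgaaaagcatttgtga
Tet2, SOX core, chr3:133533002-133533074, plus strand: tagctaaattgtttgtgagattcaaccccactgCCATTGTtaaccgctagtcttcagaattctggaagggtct
Tet3, SOX core, chr6:83467923-83467995, plus strand: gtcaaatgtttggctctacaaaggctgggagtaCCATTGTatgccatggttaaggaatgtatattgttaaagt
The last run holds a pair of cores on opposite strands, since the lower case stretch acaaagg in it is the reverse complement of CCTTTGT. No test was made of how the motifs fall between the writing and the erasing side, because the peaks are few and the pattern was seen before it was counted.

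**Figure D1:**
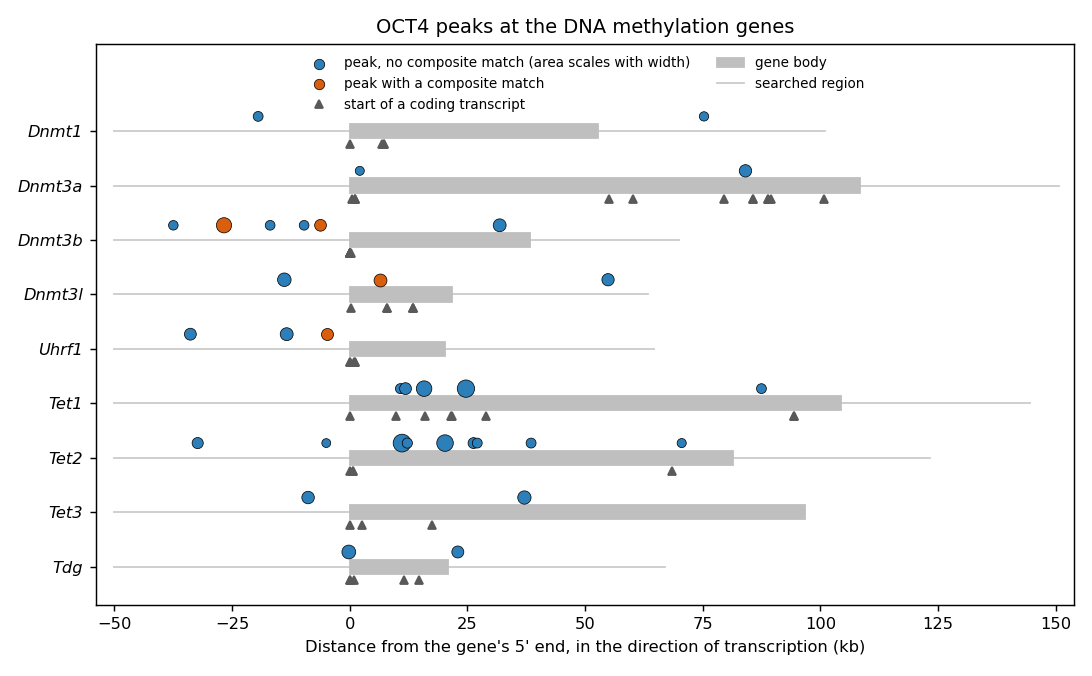
Positions of the 34 OCT4 peaks at the 9 genes, as the distance of the peak midpoint from the 5′ end of the gene in kb, in the direction of transcription. Circles are peaks with an area that scales with width, orange where a composite match is present, grey bars are gene bodies, grey lines the searched region and triangles the starts of coding transcripts. Tet2 holds 9 peaks, 7 of them in its body, while 5 of the 6 Dnmt3b peaks and all 3 Uhrf1 peaks lie upstream.

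Every one of the 9 genes had at least 1 peak, against 73% of all protein-coding genes. Tet2 had 9 peaks, Dnmt3b 6, Tet1 5, and Dnmt3l and Uhrf1 3 each. Dnmt1, Dnmt3a, Tet3 and Tdg had 2 each. The median was 3 peaks per gene, where the median protein-coding gene had 2 (interquartile range 0 to 3, highest 50). As many peaks as Tet2, or more, were held by 1.31% of protein-coding genes, and the same share was 5.70% for Dnmt3b and 10.4% for Tet1. A count of 3 was reached by 31.1% of protein-coding genes and a count of 2 by 50.2%. Long genes search more sequence, so the count was also divided by the searched span, which was 201 kb for Dnmt3a and 113 kb for Dnmt3l. Per 100 kb, Tet2 had 5.19 peaks and Dnmt3b 5.00, and the other genes had between 0.996 and 2.65. A density as high or higher was held by 2.48% of protein-coding genes for Tet2 and 2.66% for Dnmt3b. For Tet1 that share was 22.8%, close to Dnmt3l (22.1%) and Uhrf1 (22.4%), so Tet1 did not stand out by density. It ran from 41.0% for Tdg to 56.4% for Dnmt3a among the remaining genes. The median of the 9 genes was 2.57 peaks per 100 kb, where the median protein-coding gene had 1.00 (interquartile range 0 to 2.29). All 9 spans together gave 2.55, a pooled value that is not comparable to a median over genes. Peak counts of neighbouring genes overlap, since 23 of the 34 peaks also met the rule for at least 1 other protein-coding gene, and a coordinate list cannot say which gene a peak acts on.

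**Figure D2:**
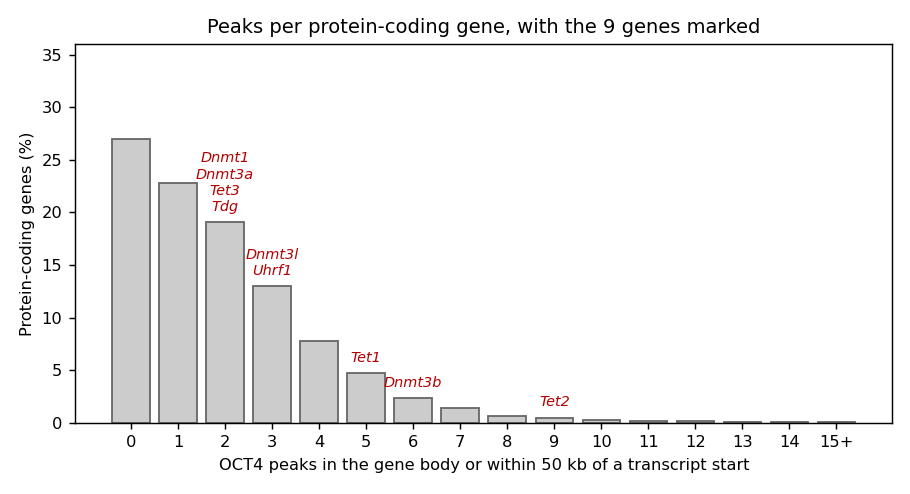
Share of 21938 protein-coding genes, in percent, by the number of OCT4 peaks in the gene body or within 50 kb of a transcript start. The names stand above the bar of their own count, with Tet2 at 9, Dnmt3b at 6 and Tet1 at 5 to the right of the median of 2. Counts are not divided by the searched span.

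Dnmt3b (ENSMUSG00000027478.15, chr2:153649450-153687730, plus strand), which encodes a de novo methyltransferase, had 5 of its 6 peaks upstream of its start. Their midpoints lay 37.5, 26.7, 16.9, 9.71 and 6.22 kb before the 5′ end, and no peak lay within 1 kb of a Dnmt3b start. The widest, at chr2:153622401-153623039, was 639 bp, wider than 91.3% of all peaks, and held the distal composite match and 18 CpGs. It lies in an intron of the neighbour Commd7, a gene of the COMM domain family, 10.0 kb from the nearest start of that gene. The peak at chr2:153643042-153643423 was nearest the Dnmt3b start among the 6, was 382 bp wide and held the proximal composite match. Both of these peaks also held a SOX core. The peak at chr2:153632394-153632655 lay 0.207 kb from a Commd7 start and had a GC content of 65.3% with 18 CpGs in 262 bp. The sixth peak, at chr2:153681073-153681530, lay in an intron of Dnmt3b and also met the rule for the paralogue Dnmt3c. From 26.7 to 6.22 kb upstream, 4 peaks followed each other at gaps of at most 10 kb and together spanned 21.0 kb. Dnmt3b had the nearest start of any coding gene for 2 of its 6 peaks and Commd7 for the other 4.

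Dnmt3a (ENSMUSG00000020661.15, chr12:3806007-3914443, plus strand), the second de novo enzyme, had 2 peaks, both in its introns and each close to one of its transcript starts. The first, at chr12:3808022-3808246, lay 974 bp downstream of the start of Dnmt3a-218, whose coding sequence gives 908 residues. It was 225 bp wide, narrower than most of the list (percentile 9.15), and its GC content of 67.6% was the highest of the 34 peaks. It held 20 CpGs and a CpG observed to expected ratio of 0.782, against a median of 0.206 over all peaks. The second, at chr12:3889884-3890307, was 424 bp wide and lay 1.63 kb upstream of the start of Dnmt3a-205, a shorter transcript of 689 residues. It held 5 CpGs, an observed to expected ratio of 0.199 and an ESRRB half-site, AAGGTCA, but neither an octamer nor a SOX core. It does not hold the start itself, where a RefSeq promoter window of 300 bases had a GC content of 74%, 18 CpGs and a ratio of 0.468. The first peak is printed whole and the second as its central 300 bases, on the plus strand with CpGs in capitals. They show how unlike the sequences of the 2 peaks were.
Dnmt3a, long transcript, chr12:3808022-3808246: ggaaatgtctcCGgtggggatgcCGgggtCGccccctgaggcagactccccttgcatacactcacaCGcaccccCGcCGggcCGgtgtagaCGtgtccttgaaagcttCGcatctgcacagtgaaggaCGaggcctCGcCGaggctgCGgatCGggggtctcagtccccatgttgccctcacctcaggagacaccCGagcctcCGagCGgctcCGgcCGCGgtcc
Dnmt3a, short transcript, chr12:3889946-3890245: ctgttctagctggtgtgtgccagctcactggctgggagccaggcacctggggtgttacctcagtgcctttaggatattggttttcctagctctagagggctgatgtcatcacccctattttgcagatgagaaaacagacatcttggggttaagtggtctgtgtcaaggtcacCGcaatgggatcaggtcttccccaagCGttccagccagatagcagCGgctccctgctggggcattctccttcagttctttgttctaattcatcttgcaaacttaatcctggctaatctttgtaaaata

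Dnmt3l (ENSMUSG00000000730.13, chr10:78041947-78063622, plus strand), the cofactor without catalysis, had 3 peaks. The one nearest a start, at chr10:78048118-78048577, was 460 bp wide and lay in an intron 1.49 kb upstream of the start of Dnmt3l-201, which encodes 421 residues. It held the composite match, a SOX core, an ESRRB half-site and the KLF site CCACACCC, and was the only one of the 34 peaks with 4 of the 7 motifs searched. Repeats covered 53.0% of this peak. The widest, at chr10:78027785-78028289, was 505 bp wide, lay 13.9 kb upstream and was nearer to Aire, which encodes a regulator of tolerance in the thymus. The third, at chr10:78096623-78097038, held the octamer and lay 41.5 kb from the nearest Dnmt3l start. All 3 peaks also met the rule for Icosl.

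Dnmt1 (ENSMUSG00000004099.16, chr9:20907209-20959888, minus strand), the maintenance enzyme, had 2 peaks, neither in its body and neither with the Dnmt1 start as the nearest. The one at chr9:20979225-20979493 was 269 bp wide, lay 19.5 kb upstream and was 2.58 kb from a start of S1pr2, a receptor gene. Repeats covered 57.6% of it, and it held an ESRRB half-site and an E-box, CACGTG. The other, at chr9:20884493-20884733, was 241 bp wide and 95.4% repeat. It lay 75.3 kb beyond the 5′ end of Dnmt1 and met the rule through a retained intron transcript near the 3′ end of the gene, 24.4 kb away. With the search limited to 10 kb, to peaks of at least 300 bp or to peaks that were at most 50% repeat, Dnmt1 had 0 peaks.

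Uhrf1 (ENSMUSG00000001228.14, chr17:56303321-56323486, plus strand), which guides DNMT1 to hemimethylated DNA, had 3 peaks, all upstream and all inside other genes. They lay 33.9 kb upstream in the 3′ UTR of Ticam1 (chr17:56269249-56269638, 390 bp), 13.4 kb upstream in an intron of Plin3 (chr17:56289683-56290142, 460 bp, the widest) and 4.84 kb upstream in an intron of Arrdc5 (chr17:56298284-56298683, 400 bp). The Plin3 peak was 0.599 kb from a start of that gene, which encodes a lipid droplet protein. The Arrdc5 peak held the composite match, had 1 CpG and was 59.8% repeat. Uhrf1 had the nearest start of any coding gene for 0 of its 3 peaks.

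Tet2 (ENSMUSG00000040943.12, chr3:133463679-133545139, minus strand) had the most peaks of the 9 genes, and none of its 9 met the rule for another protein-coding gene. A Tet2 start, with all transcript types counted, was the nearest start of any coding gene for all 9. Joined at gaps of at most 10 kb, the whole list gave 21558 units, single peaks included, and 79 of them had 5 or more peaks. From 11.1 to 27.1 kb downstream of the 5′ end, 5 Tet2 peaks formed such a unit, within 16.6 kb in the introns. The widest of these, at chr3:133533596-133534467, was 872 bp, wider than 97.9% of all peaks, and held a SOX core and an E-box. The next, at chr3:133532763-133533047, was 285 bp wide and held the core CCATTGT shown above. The peak at chr3:133524517-133525272 was 756 bp wide, wider than 95.7% of all peaks, and held 2 SOX cores and the octamer variant. The remaining pair of the unit, at chr3:133518678-133519005 and chr3:133517915-133518184, held none of the motifs searched.

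The other Tet2 peaks stood apart. The peak at chr3:133506472-133506744 was 273 bp wide and held the second octamer variant, and lay 38.5 kb into the gene. The peak at chr3:133474487-133474716, 230 bp wide and 70.5 kb into the gene, was 218 bp from the start of Tet2-209, a retained intron transcript, and so was the only Tet2 peak within 1 kb of a Tet2 start. Upstream of the gene, peaks lay 5.00 kb (chr3:133550028-133550244, 217 bp) and 32.3 kb (chr3:133577291-133577633, 343 bp) from the 5′ end, both in an intron of Gm42567. No peak lay within 1 kb of the starts of the transcripts that encode 1912 and 1920 residues.

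Tet1 (ENSMUSG00000047146.17, chr10:62804570-62908996, minus strand) had 5 peaks, all in its introns, and 4 of them lay within 14.5 kb. The first of these, at chr10:62898099-62898374, was 276 bp wide and 882 bp downstream of the start of Tet1-206, which encodes 2039 residues. It held a KLF site and 1 CpG. The second, at chr10:62896957-62897344, was 388 bp wide, 1.97 kb downstream of the same start, and held a SOX core and an ESRRB half-site. The third, at chr10:62892871-62893536, was 666 bp wide, 218 bp upstream of the start of Tet1-209, a coding fragment of 47 residues, and held the octamer variant. The fourth and widest, at chr10:62883900-62884729, was 830 bp, wider than 97.3% of all peaks, and held the octamer and a SOX core. The fifth, at chr10:62821380-62821648, was 269 bp wide, lay 87.5 kb into the gene and held none of the motifs. The peak at the long transcript is printed on the gene's strand with its only CpG in capitals.
Tet1, chr10:62898099-62898374, minus strand: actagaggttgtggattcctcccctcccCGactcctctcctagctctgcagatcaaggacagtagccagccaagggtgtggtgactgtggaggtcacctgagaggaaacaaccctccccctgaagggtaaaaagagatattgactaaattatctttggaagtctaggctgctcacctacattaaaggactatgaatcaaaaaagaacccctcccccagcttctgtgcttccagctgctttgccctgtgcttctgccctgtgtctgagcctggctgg

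Tet3 (ENSMUSG00000034832.15, chr6:83362373-83459084, minus strand) had 2 peaks, and a Tet3 start was the nearest start of any coding gene for both. The one at chr6:83467729-83468159 was 431 bp wide, lay 8.86 kb upstream and held the pair of SOX cores on opposite strands. The one at chr6:83421733-83422221 was 489 bp wide, lay in an intron 37.1 kb into the gene and held the octamer variant.

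Tdg (ENSMUSG00000034674.18, chr10:82629828-82650799, plus strand), the glycosylase, had 1 peak at its own start and 1 at the start of a neighbour. The peak at chr10:82629361-82629883 was 523 bp wide and its midpoint was 206 bp upstream of the start of Tdg-201, which encodes 397 residues. It held 30 CpGs, the most of the 34 peaks, a CpG observed to expected ratio of 0.688 and an E-box. The other, at chr10:82652591-82652986, was 396 bp wide, lay 23.0 kb beyond the 5′ end of Tdg and 0.192 kb from a start of Glt8d2, and held the octamer and an ESRRB half-site. The 300 bases of the first peak that end at the Tdg start are printed with CpGs in capitals, and the E-box cacgtg is inside the stretch atcaCGtgatgg near the right end.
Tdg, chr10:82629528-82629827, plus strand: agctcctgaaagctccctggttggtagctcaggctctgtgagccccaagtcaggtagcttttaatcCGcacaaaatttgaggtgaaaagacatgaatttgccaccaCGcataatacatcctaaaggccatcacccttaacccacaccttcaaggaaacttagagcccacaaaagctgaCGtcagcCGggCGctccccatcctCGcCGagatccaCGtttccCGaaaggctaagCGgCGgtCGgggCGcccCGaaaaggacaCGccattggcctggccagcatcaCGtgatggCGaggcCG

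Of the 34 peaks, 5 lay within 1 kb of a start of their own gene, 2 at Tet1 and 1 each at Dnmt3a, Tet2 and Tdg. A further 3 were within 1 kb of a start of Commd7, Plin3 or Glt8d2, which made 8 of 34 (23.5%, 95% Wilson interval 12.4 to 40.0%) within 1 kb of any coding gene start, against 17.8% of the peaks assigned to a protein-coding gene. RefSeq lists 16 promoter windows for the 9 genes in build GRCm38.p6, each of 300 bases, and 1 of the 16, that of Tdg, met a peak. Over all RefSeq promoter windows the share was 5.51%. The CpG observed to expected ratio of the 16 windows ran from 0.101 at a Dnmt1 start to 1.17 at Tet2. The intervals cover counting error only and take peaks as independent, which peaks of 1 gene are not.

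The 34 peaks lay both in gene bodies and in flanks. Inside the gene bodies there were 17 peaks, 13 of them in Tet1, Tet2 and Tet3. Upstream of the 5′ end there were 14, of which Dnmt3b held 5 and Uhrf1 3. The bodies of Tet1, Tet2 and Tet3 are 104, 81.5 and 96.7 kb long. That of Dnmt3a, with 2 peaks, is 108 kb, that of Dnmt3b 38.3 kb and that of Uhrf1 20.2 kb. These counts were not divided by length, and the same split is not given for all peaks. By annotation 23 peaks (67.6%, interval 50.8 to 80.9%) were in an intron, against 54.9% of the assigned peaks. Another 9 were intergenic (26.5%, interval 14.6 to 43.1%), against 34.8% of the assigned peaks. Units of at least 3 peaks at gaps of at most 10 kb held 13 of the 34 peaks (38.2%), those of Tet2, Dnmt3b and Tet1, and held 11% of all peaks. As these 13 peaks come from 3 loci, the share rests on 3 places in the genome.

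Peak width ran from 217 to 872 bp with a median of 389 bp, against a median of 352 bp over all peaks. Peaks wider than 500 bp numbered 7 of 34, and the share over all peaks was 20.7%. The widest 3 were at Tet2 (872 and 756 bp) and Tet1 (830 bp). Median GC content was 47.3% at the 9 genes and 46.4% over all peaks, and the median CpG observed to expected ratio was 0.207 and 0.206. A width in a merged list is that of the union of the peaks behind it.

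**Figure D3:**
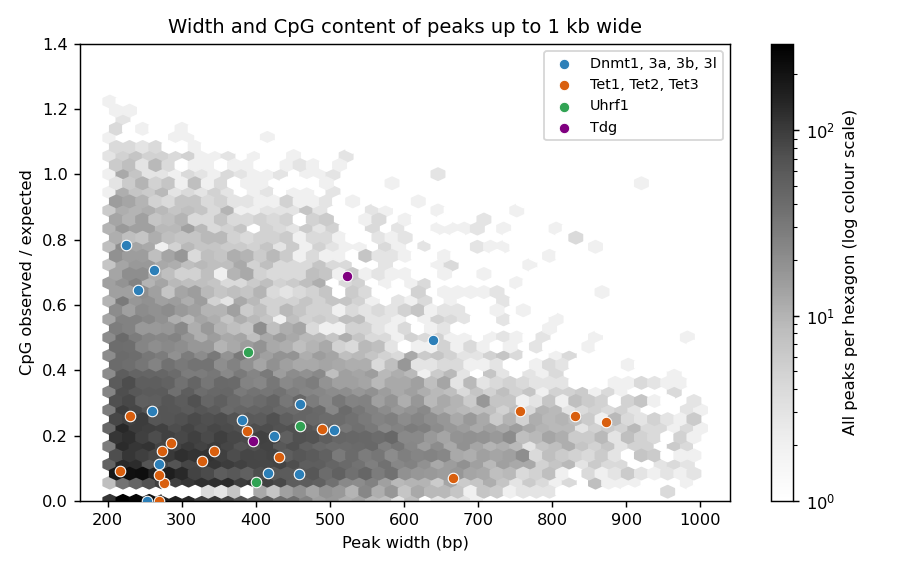
CpG observed to expected ratio against width in bp for peaks up to 1 kb wide, with all peaks as grey hexagons on a log colour scale and the 34 peaks of the 9 genes as points. Most points lie in the dense lower band around the median of 0.206, and 4 points stand well above it, a Dnmt3a peak at 0.782, the Dnmt3b peak beside Commd7 at 0.708, the Tdg peak at 0.688 and a Dnmt1 peak at 0.646.

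The composite was in 4 of 34 peaks (11.8%, interval 4.67 to 26.6%) and in 11.5% of all peaks. The octamer was in 8.82% against 11% and its variant in 11.8% against 7.73%. The SOX core was in 9 of 34 peaks (26.5%) against 30.3%. The ESRRB half-site was in 17.6% against 14.9%, the KLF site in 5.88% against 6.35% and the E-box in 11.8% against 6.23%. None of the 7 motifs was found in 14 of 34 peaks (41.2%) and in 39.4% of all peaks. Each share over all peaks lay inside the interval of the 34. These intervals take peaks as independent, which peaks of the same gene are not, and no difference was tested. With 4 mismatches allowed, the composite was in 20.6% of the 34 peaks and in 35.9% of all peaks. An unchanged composite would also count as an octamer, so these motifs overlap. A match describes the letters of a peak and does not show that a factor was bound to them.

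**Figure D4:**
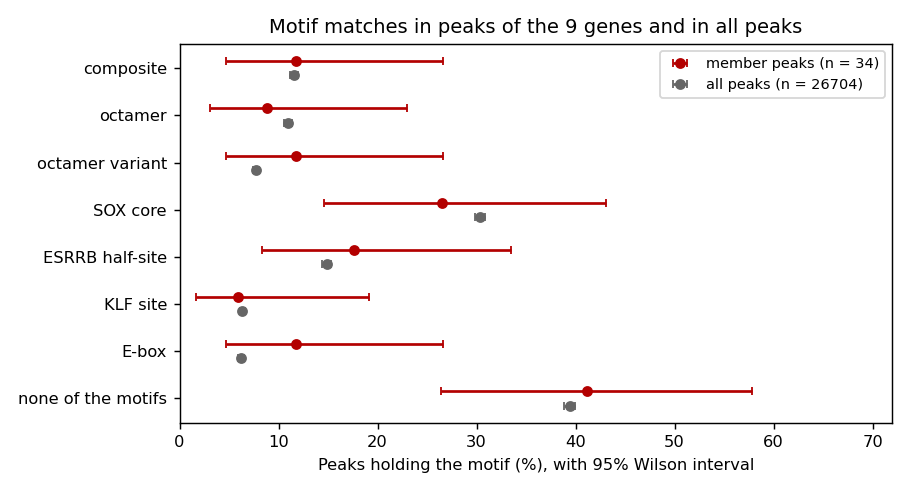
Share of peaks in percent that hold each motif, with 95% Wilson intervals, for the 34 peaks of the 9 genes in red and for all 26704 peaks in grey. For every motif the grey point lies inside the red interval, from 11.8% against 11.5% for the composite to 26.5% against 30.3% for the SOX core.

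Genes that work with these enzymes were counted by the same rule from a list of 42. At least 1 peak was present at 39 of the 42 (92.9%), with a median of 3 peaks, where all protein-coding genes gave 73% and a median of 2. Of 8 genes listed in the reader group 7 had a peak, and Mbd3 had 0. Whether each of their proteins binds methylated DNA was not examined. Partners of maintenance had a peak in 6 of 6, led by Usp7, a deubiquitinase that acts on UHRF1 and DNMT1, with 9, and by Cdca7, the partner of the remodeler HELLS, with 5. Of 8 repair genes 7 had a peak and Neil2, a glycosylase, had 0. Regulators of methylation had a peak in 8 of 8, with 9 at Zfp57, which protects imprints, and 5 each at Cxxc5 and Dppa3. Dppa3, which keeps UHRF1 away from chromatin, shares its neighbourhood with Nanog, which also had 5 peaks. Of 7 histone methyltransferases and CpG binders 6 had a peak, with 7 at Nsd1 and 6 at Kdm2b, and Cxxc1 had 0. Genes that supply or consume methyl donors and the TET cosubstrate had a peak in 5 of 5. The list therefore had the same median count as the 9 genes, and the median of the ES cell genes was 5.5.

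**Figure D5:**
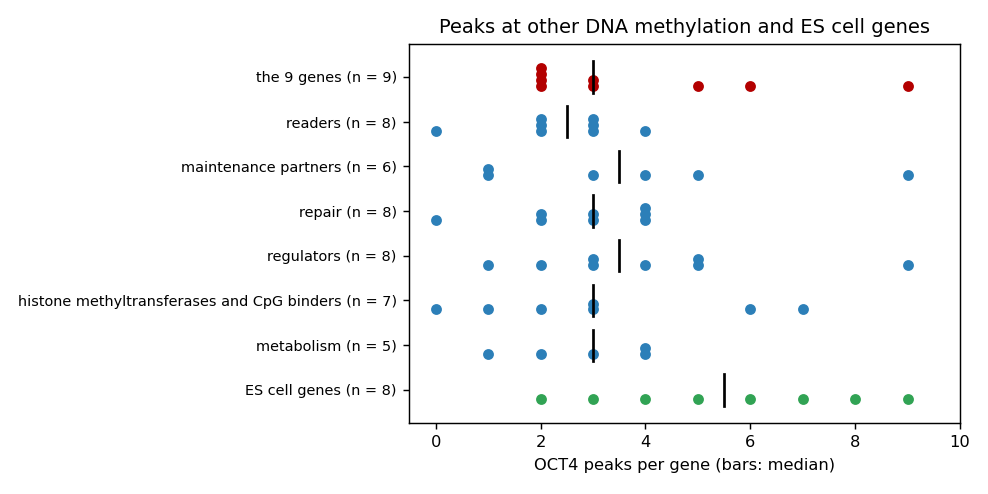
OCT4 peaks per gene for the 9 genes (red), 42 other genes of DNA methylation in 6 groups (blue) and 8 ES cell genes (green), with 1 point per gene and a bar at the group median. The medians of the blue groups lie between 2.5 and 3.5, that of the 9 genes at 3 and that of the ES cell genes at 5.5.

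The 50 kb limit left few peaks close to the border. Among member peaks outside a gene body, the one farthest from an own start was the Dnmt3l peak at 41.5 kb. Just outside the limit were a Tdg neighbour at 52.3 kb (chr10:82699130-82699343, 214 bp) and a Dnmt3b neighbour at 53.6 kb (chr2:153722767-153723117, 351 bp).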

How the data were processed

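OCT4, BRG1 and H3K27ac ChIP-seq libraries were made by the authors from 2TS22C and ZHBTc4 ES cells. According to the study's methods and the submitters' processing notes, reads were aligned to mm10 with STAR 2.6.1c, duplicates were removed with Picard, peaks were called with MACS2 2.1.1.20160309 in paired-end mode, and peak files were merged with BEDTools. The deposited file used here holds the coordinates of 26704 merged OCT4 peaks of 2TS22C cells and no other value. The libraries behind the merge, and any pooling of replicates, are not given in the sources used here, and depth is unknown. A locus without a peak may therefore lie below the calling threshold. Weak peaks that came from 1 library count as much as strong ones from all.

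Starts were converted to count from 1. Chromosome names and lengths matched GRCm38. Genes, transcripts and coding lengths came from GENCODE M21, with all transcript types used as starts, promoter windows from RefSeq (GRCm38.p6), and repeats from the lower case letters of the reference genome. Each peak was described by its midpoint, width, base content and motif matches on both strands, with Python 3.11.15, NumPy 2.4.6 and pysam 0.24.0. The motif search was tested on simulated data. Motifs were searched without mismatch apart from the composite, which allowed 3. Positions were annotated against genes of all types. Intervals are 95% Wilson intervals, and the limit for a count of 0 is 3 divided by the number of peaks. The 9 genes, the list of 42 and the motifs were chosen with earlier results of these data known, and the octamer variant was added after them. Named peaks were, for each gene, the one nearest an own start, those within 1 kb of a start, the widest and those with a composite match, and of the 42 genes those with the most peaks and those with 0. Other peaks were named after their values were seen. No test was run, since the list has no replicate.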

Additional observations from a re-analysis of the deposited data

How the results depend on the processing

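Of 136 alternative values of 20 results, 116 stayed near the reported value and 20 moved. Near meant within 1.5 times for counts, densities and medians, and inside the 95% interval of the reported share for shares. The results have no sign, so none could reverse. The intervals of shares of 34 peaks are wide, so a share counted as near can still differ much from the reported one. Limiting the list to peaks of at least 300 bp left 21 peaks at the 9 genes in place of 34. Counted within 500 bp of an own start there were 3 peaks, and within 2.5 kb there were 8, in place of 5. With at most 2 mismatches the composite was in 0% of the 34 peaks (2.21% of all peaks). Each composite match named here thus rests on the third mismatch from the searched sequence. With A or T accepted at the second base, the composite was in 17.6% of the 34 peaks, and the share over all peaks is not given. The A2T change of the distal Dnmt3b site is not a mismatch at that setting. With at most 4 mismatches it was in 20.6% of the 34 peaks, inside the interval of the reported 11.8%, and in 35.9% of all peaks. With 1 mismatch allowed the octamer was in 64.7% of the 34 peaks, and in 53.5% of all peaks. Dnmt3b had 3 peaks with a 10 kb limit and 10 with 100 kb, and Tet2 had 4 of at least 300 bp. No paired analysis was possible because peaks of single libraries were not separated in the merged coordinates. The planned contrast of SOX2 OFF against SOX2 ON, the replicate block and leaving out each replicate were thus not run. Peak heights, binding strength and changes with dox are not covered by these values.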
